A study of Mus musculus with 12 samples.

Results

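In control liver, sucrose refeeding after a fast raised the RNA of 11 of 16 genes of fatty acid synthesis and 4 of 13 of glycolysis. It lowered the RNA of 5 of 13 genes of gluconeogenesis, 12 of 32 of amino acid catabolism and 10 of 19 induced by glucocorticoids, glucagon or fasting. The lists share genes, among them *Pck1*, *Tat* and *Ppargc1a*, so these counts are not separate. The lists were chosen with earlier results of these data known, and 8.57% of all genes tested changed in either direction. The comparison took 4 of the 12 RNA-seq libraries of the study, 2 from fasted control mice and 2 from control mice refed with sucrose, which were taken by their genotype and diet labels. Of the 16346 genes in the table, 12366 whose normalized counts averaged 10 or more across the 12 libraries were tested, and every gene tested counted as a member. The study asked how the liver responds to dietary sugars when hepatocytes lack MED13, which belongs to the kinase module of Mediator. Control mice were C57BL6J animals 12 weeks old that carried the floxed *Med13* alleles (Med13 fl/fl) without Cre recombinase. Fasted mice had no food for 16 h. Refed mice were fasted for the same 16 h and then received normal chow together with drinking water that held 30% sucrose for 4 h, and the fructose group received 30% fructose in the same way. The libraries labelled MED13-LKO came from floxed mice with Cre driven by the albumin promoter, which acts in hepatocytes and leaves the other cells of the liver with the intact gene. A group refed chow with plain water was not analysed here, so the part of the chow and the part of the sugar cannot be told apart.

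After a meal, insulin and sugar act together on the hepatocyte. Insulin activates AKT, which drives SREBP-1c, a transcription factor for fatty acid synthesis, and removes FOXO1, a transcription factor for glucose output and insulin-sensing genes, from the nucleus. Sugar phosphates made from glucose and fructose activate ChREBP, which acts at genes of glycolysis, fructose breakdown and lipogenesis, while glucagon and glucocorticoids, which dominate in the fast, lose ground.

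Each group held 2 mice. The files give normalized counts, in which the reads assigned to a gene are divided by a scaling factor for the library. These sums were 23214602 and 24152885 in the fasted mice and 21251690 and 22131130 in the refed mice, and the steps between the lowest values put the reads on genes at about 20090000 to 21410000 a library. The 100 most abundant genes took 52.8% and 53.5% of the fasted and 49.4% and 50.4% of the refed libraries. All 7 hepatocyte markers tested were abundant, with summed normalized counts of 2523687 to 3169857, and 1 of them, *Cps1*, fell. None of the 10 Kupffer cell, 10 sinusoidal endothelial, 10 stellate cell, 4 cholangiocyte, 2 lymphocyte, 2 neutrophil and 5 erythroid markers tested by limma passed the test in either direction, and no marker of the exocrine pancreas reached the minimum. Summed Kupffer cell markers were 5614 and 5843 in the fasted and 5674 and 4452 in the refed mice, and the sinusoidal endothelial sums were 6978, 6973, 6851 and 5975 in the same order, so that refed replicate 2 was the lowest for both. Stellate cell sums were 7719, 7302, 6696 and 7878. Fewer cells of a type and less RNA per cell cannot be told apart in whole tissue. The labels do not say how the mice of a group relate, and p-values measure the spread among these samples.

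Of the 12366 genes, 1060 (8.57%) were called at an adjusted p under 0.05 by limma, a linear model test with a spread shared across genes, run on log2(normalized count + 1). All 12 libraries were in this fit, so the spread within a group was pooled over the 6 groups, fructose and MED13-LKO labels included. In all, 600 genes (4.85%) rose and 460 (3.72%) fell. The median log2 fold change was 0.81 among those that rose, -0.75 among those that fell and -0.02 over all genes tested. The change exceeded 2-fold on this scale for 373 genes (3.02%), 219 higher and 154 lower. All 1060 called genes had refed mice that did not overlap the fasted mice, but so did 6938 (56.1%) of all genes tested, so a lack of overlap alone was common. Among the 600 genes that rose, replicate 1 of the refed mice lay above replicate 2 in 391 (65.2%), against 49.8% of all genes tested. With 1 of the 4 mice left out, 329 to 512 genes were called, and 239 of the 1060 kept their call with each of the 4 mice left out. Without fasted replicate 1, 490 were called, without fasted replicate 2, 329, without refed replicate 1, 370, and without refed replicate 2, 512. With only the 4 libraries in the fit, 698 genes were called, of which 571 were among the 1060. The plot of all genes tested shows the changes against the mean level.

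**Figure D1:**
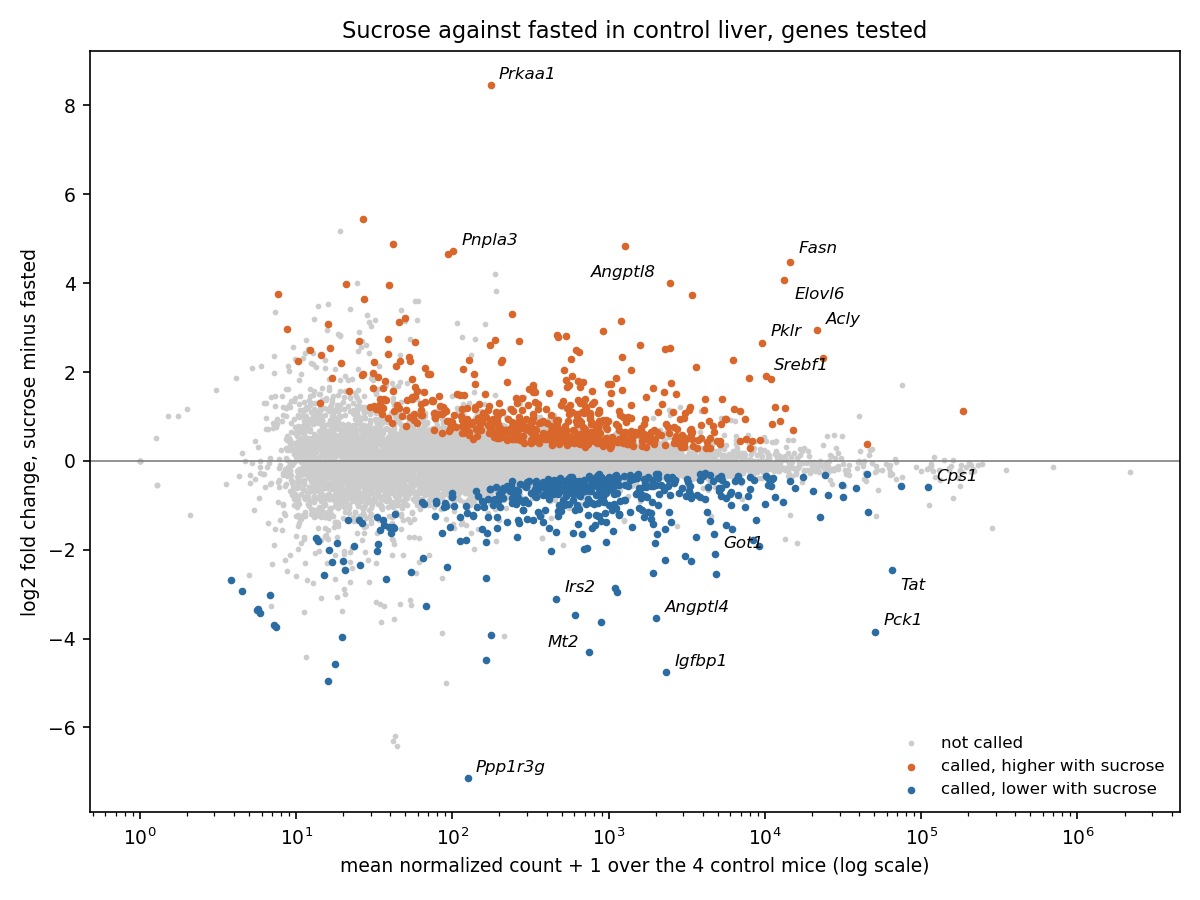
Log2 fold change, sucrose minus fasted control liver, on the vertical axis against the mean normalized count + 1 of the 4 mice on a log scale on the horizontal axis, 1 point per gene for the 12366 genes tested. Colored points are the 600 genes that rose and the 460 that fell (adjusted p under 0.05, limma), and the labelled genes lie at the outer edges of the cloud, such as *Fasn* at 4.48 and *Igfbp1* at -4.76.

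The stretches of DNA just before the transcription start of 4 genes that the results turn on are shown so that a pair that rose (*Fasn* and *Pklr*) can be set beside a pair that fell (*G6pc* and *Irs2*). They come from the RefSeq annotation of build GRCm38.p6, with the 250 bases before the start written 5′ to 3′ on the strand of the gene. Capitals mark CCAAT on either strand, TATAAA (a core promoter element), TGTTTGC (a FOXO-type sequence) and CACGTG (an E-box). *Pklr* has 2 listed starts, and the one that comes second in the table is shown.
Fasn: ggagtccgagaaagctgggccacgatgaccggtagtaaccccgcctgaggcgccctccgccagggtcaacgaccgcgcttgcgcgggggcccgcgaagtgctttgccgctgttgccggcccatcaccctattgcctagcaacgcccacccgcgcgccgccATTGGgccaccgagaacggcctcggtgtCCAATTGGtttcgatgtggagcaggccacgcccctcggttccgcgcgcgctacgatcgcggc
Pklr: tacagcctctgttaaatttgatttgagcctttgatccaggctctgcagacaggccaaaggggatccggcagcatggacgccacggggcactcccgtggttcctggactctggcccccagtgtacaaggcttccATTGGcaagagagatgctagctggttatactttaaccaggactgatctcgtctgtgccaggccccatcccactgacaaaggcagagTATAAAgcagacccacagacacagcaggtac
G6pc: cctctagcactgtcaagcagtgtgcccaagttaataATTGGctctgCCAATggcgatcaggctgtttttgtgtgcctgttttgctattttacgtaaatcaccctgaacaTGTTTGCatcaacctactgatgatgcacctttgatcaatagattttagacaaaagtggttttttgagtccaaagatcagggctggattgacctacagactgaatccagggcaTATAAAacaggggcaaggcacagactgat
Irs2: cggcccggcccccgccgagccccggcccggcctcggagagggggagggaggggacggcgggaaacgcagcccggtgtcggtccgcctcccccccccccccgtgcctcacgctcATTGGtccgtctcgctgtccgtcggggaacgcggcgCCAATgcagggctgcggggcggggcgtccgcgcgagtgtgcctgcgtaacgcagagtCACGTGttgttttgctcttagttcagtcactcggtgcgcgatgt
They lie at chr11:120824548-120824797 on the minus strand (*Fasn*), chr3:89136373-89136622 on the plus strand (*Pklr*), chr11:101367466-101367715 on the plus strand (*G6pc*) and chr8:11008930-11009179 on the minus strand (*Irs2*). CCAAT stood in all 4 windows, 3 times before *Fasn* with the last match ending 55 bases from the start, and is present in 33.8% of the 32851 promoter windows of this length. TATAAA, found in 12.4% of windows, ended 26 bases before the *Pklr* start and 24 bases before the *G6pc* start. TGTTTGC, found in 4.30% of windows, lay 141 to 135 bases before the *G6pc* start, and CACGTG, found in 6.02%, lay 44 to 39 bases before the *Irs2* start. TGTTTAC (3.17% of windows) and the sterol response element, exact (0.0731%) or with 1 base left free (0.192%), were searched on both strands and were in none of the 4 windows. Only these spellings were searched, so split or variant forms of an E-box or a FOXO-type sequence are not marked in any of the 4 windows. A window without a mark, such as that of *Pklr* for CACGTG, cannot be taken to lack such an element. The letters are a description of these windows and say nothing of binding.

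Most genes of fatty acid synthesis rose. Of the 16 tested, 11 rose and none fell, and the median log2 fold change of the 16 was 2.07. *Fasn* encodes fatty acid synthase, the enzyme that builds palmitate, and its normalized counts were 1290 and 1085 in the fasted mice and 35838 and 19511 in the refed mice. Both refed mice were far above both fasted mice, and the log2 fold change was 4.48 (SE 0.37, adjusted p = 0.000313). *Elovl6*, which lengthens palmitate to stearate, gave 1767 and 1163 in the fasted and 32459 and 17706 in the refed mice (log2 fold change 4.06, SE 0.41, adjusted p = 0.000499). For *Acly*, which makes cytosolic acetyl-CoA from citrate, the counts were 5029 and 4321 against 52529 and 24448 (log2 fold change 2.94, SE 0.36, adjusted p = 0.00126). In each of these genes the refed replicate 1 was the higher of the pair, and this held for all 11 genes of the list that rose.

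The acetyl-CoA carboxylases, which make malonyl-CoA, rose as well, *Acaca* by 2.28 (adjusted p = 0.00129) and *Acacb* by 2.35 (adjusted p = 0.00403) on the log2 scale. *Mid1ip1*, whose product activates them, rose by 2.52 (adjusted p = 0.000261) and its relative *Thrsp* by 2.31 (adjusted p = 0.0241). *Pnpla3*, a lipid droplet protein, went from 6.78 and 3.61 in the fasted mice to 312 and 79.6 in the refed mice. The refed mice lay far apart, with the lower still above both fasted mice (log2 fold change 4.73, SE 0.71, adjusted p = 0.00379). *Elovl5* (0.60) and *Slc25a1*, the mitochondrial citrate carrier (0.32), made up the smaller rises. *Scd1*, the desaturase that makes oleate, had counts of 40814 and 25996 in the fasted and 167333 and 67058 in the refed mice. The groups did not overlap, and the difference of 1.70 (SE 0.50) was not called (adjusted p = 0.0639). The desaturases *Fads1* and *Fads2* differed by 0.19 and -0.12 and were not called. With 1 mouse left out, 8 to 10 genes of the list were called, and the calls of *Thrsp* (adjusted p = 0.147 without fasted replicate 2), *Slc25a1* (adjusted p = 0.203) and *Elovl5* (adjusted p = 0.113, both without refed replicate 1) were the ones that did not hold throughout.

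**Figure D2:**
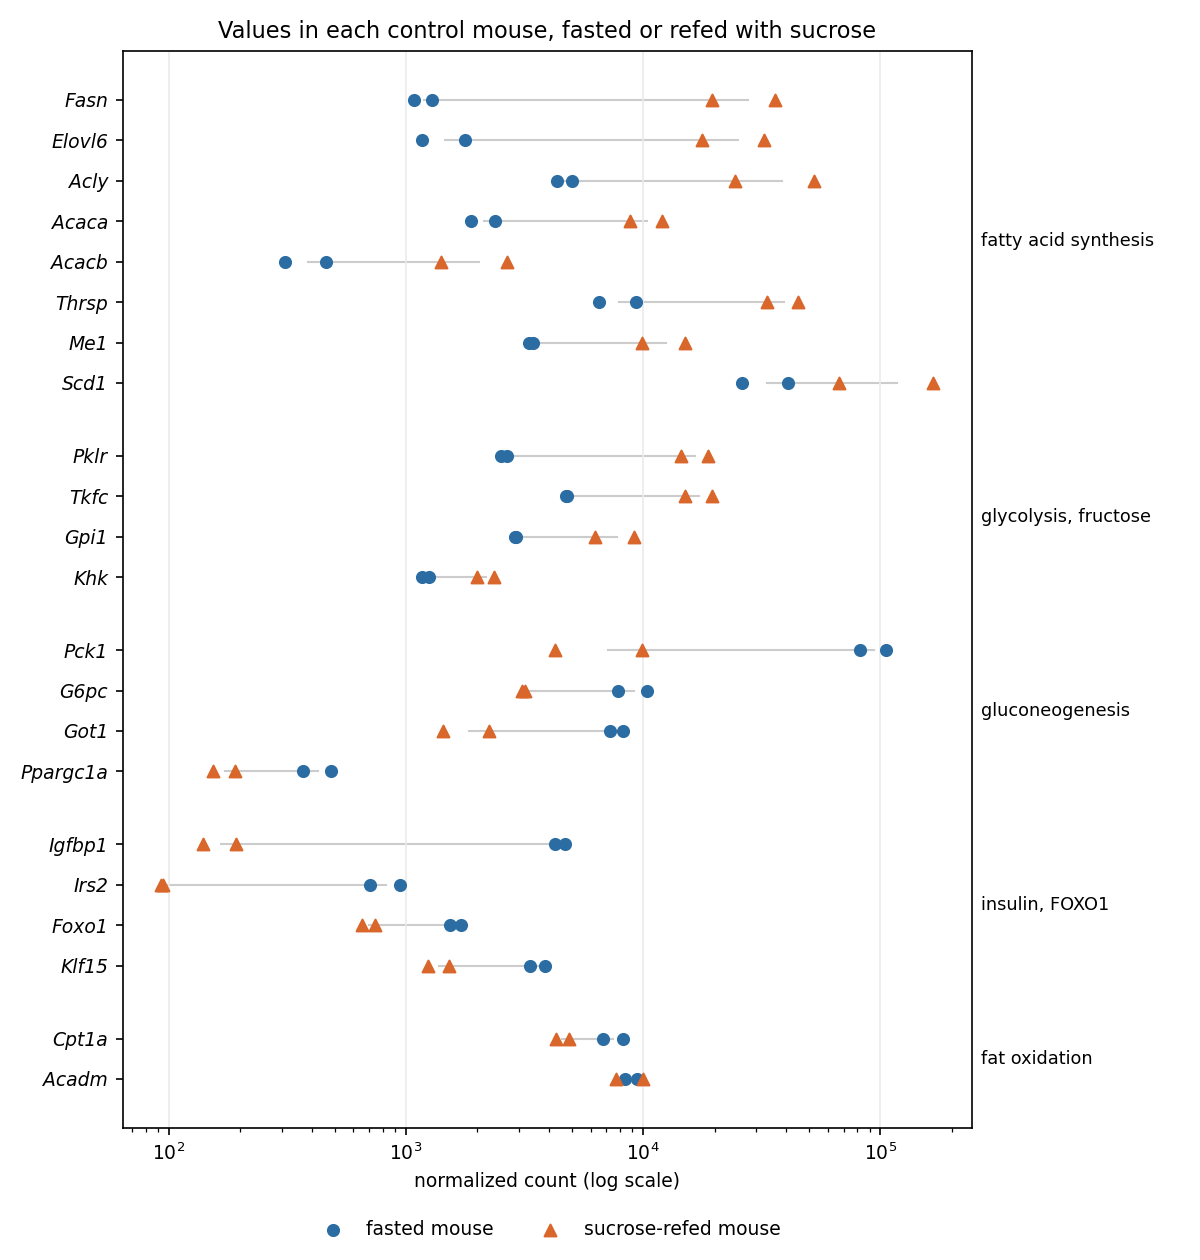
Normalized counts (log scale, horizontal axis) of 22 genes in each fasted (circles) and sucrose-refed (triangles) control mouse, with a grey line between the means of the pairs. The triangles lie right of the circles for all 8 genes of fatty acid synthesis and left of them for gluconeogenesis and the insulin and FOXO1 genes, while *Acadm* overlaps.

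Among 14 regulators of lipogenesis, 5 rose and 1 fell, with a median of 0.14. *Srebf1*, the gene of SREBP-1, had 5172 and 3349 normalized counts in the fasted and 19239 and 12668 in the refed mice. The refed mice were well above, with a log2 fold change of 1.91 (SE 0.27, adjusted p = 0.00274). *Mlxipl*, which encodes ChREBP, changed less (0.65, adjusted p = 0.0158), as did its partner *Mlx* (0.53, adjusted p = 0.0227). The table has 1 value for *Mlxipl* and does not separate its alpha and beta transcripts. The pair of INSIG genes, whose products hold SREBP in the endoplasmic reticulum, went opposite ways, *Insig1* up by 1.20 (adjusted p = 0.0261) and *Insig2* down from 2074 and 2072 to 1383 and 1369 (-0.59, adjusted p = 0.0136). *Onecut1*, the hepatocyte transcription factor HNF6, rose by 2.91 (adjusted p = 0.0351), and 53.0% of its sequence, counted in stretches of 31 bases, also occurs in other genes. *Nr1h3* (LXR alpha), *Usf1*, *Usf2*, *Scap* and *Pparg* were not called, with log2 differences between -0.17 and 0.18. *Srebf1* kept its call with any mouse left out, whereas without fasted replicate 2 the adjusted p was 0.123 for *Mlxipl*, 0.147 for *Mlx*, 0.195 for *Onecut1* and 0.0868 for *Insig2*, and *Insig1* was lost without refed replicate 1 (adjusted p = 0.158).

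In glycolysis, 4 of 13 genes tested rose and none fell (median 0.45). *Pklr*, the liver pyruvate kinase and a classic ChREBP target, went from 2516 and 2675 in the fasted to 18792 and 14368 in the refed mice. That separation was wide relative to the spread within either pair (log2 fold change 2.66, SE 0.25, adjusted p = 0.000431). *Gpi1* (1.39, adjusted p = 0.00143) and *Eno1* (0.71, adjusted p = 0.00172) also rose, and these 3 genes kept their calls with each mouse left out. *Tpi1*, *Pgk1* and *Pgam1*, which encode enzymes between those steps, differed by -0.02, 0.01 and 0.09.

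Of 9 genes for fructose uptake and breakdown, 4 rose and none fell (median 0.38). *Tkfc*, the triose kinase, rose from 4784 and 4736 to 19536 and 14977 (log2 fold change 1.85, SE 0.22, adjusted p = 0.00103). *Khk*, ketohexokinase, which commits fructose to the pathway, rose by 0.84 (adjusted p = 0.0391), and *Glyctk* by 0.38 (adjusted p = 0.0119). The transporters *Slc2a5* and *Slc2a8* differed by -0.45 and -0.39 and *Slc2a2*, the main glucose carrier of hepatocytes, by 0.45, none of them called. *Khk* lost its call without refed replicate 1 (adjusted p = 0.189) and *Glyctk* without fasted replicate 2 (adjusted p = 0.0746).

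The pentose phosphate pathway and other sources of NADPH, the reductant for lipid synthesis, showed 5 genes that rose of 12 tested and none that fell, with a median of 0.08. *Rpia*, which interconverts pentose phosphates, had 60.0 and 37.0 in the fasted and 370 and 272 in the refed mice (log2 fold change 2.73, SE 0.32, adjusted p = 0.00105). Malic enzyme, *Me1*, went from 3428 and 3292 to 14994 and 9907 (log2 fold change 1.86, SE 0.17, adjusted p = 0.000391). *Pgd* (1.52), *Tkt* (0.89) and *G6pdx* (0.88), which encode other enzymes of the pathway, rose by smaller amounts, and *Taldo1*, *Rpe* and *Idh1* differed by -0.07, 0.00 and 0.15. Without fasted replicate 2 the calls of *Pgd*, *Tkt* and *G6pdx* were lost, at adjusted p of 0.0684, 0.0746 and 0.13.

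In cholesterol synthesis and uptake, 4 of 24 genes rose and none fell (median 0.49), though the mice did not overlap for 23 of them, against 56.1% of all genes tested. *Mvd*, mevalonate diphosphate decarboxylase, rose from 277 and 243 to 970 and 737 (log2 fold change 1.70, SE 0.31, adjusted p = 0.01). *Sc5d* (0.89, adjusted p = 0.00362) and *Stard4* (0.80, adjusted p = 0.0125) rose too. With only the 4 libraries in the fit, 10 of the 24 genes rose. Leaving out single mice left 1 to 3 called, with *Sc5d* kept throughout, *Mvd* lost without refed replicate 1 (adjusted p = 0.0841) and *Stard4* without fasted replicate 2 (adjusted p = 0.0881).

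**Figure D3:**
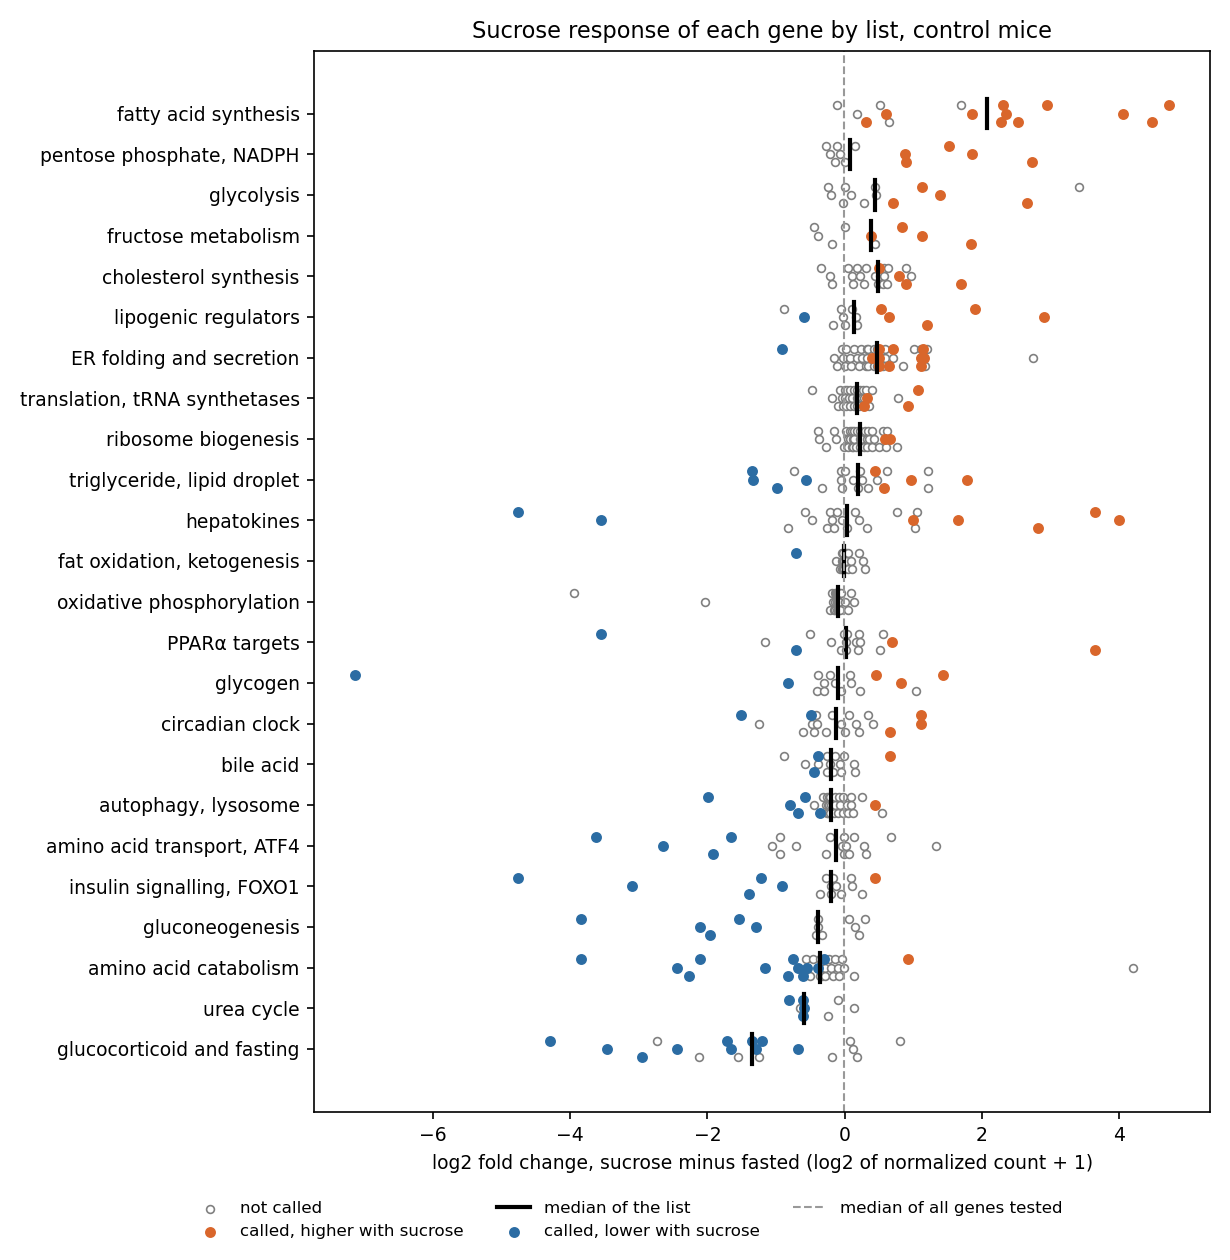
Log2 fold change, sucrose minus fasted control liver (horizontal axis), of each gene tested in 24 of the lists, 1 point per gene. Filled points were called at an adjusted p under 0.05, black bars mark the median of a list and the dashed line the median of all genes (-0.02). The medians run from 2.07 for fatty acid synthesis to -1.35 for the glucocorticoid and fasting genes.

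Gluconeogenesis moved the other way. Of 13 genes tested, 5 fell and none rose, with a median of -0.39. *Pck1*, the cytosolic phosphoenolpyruvate carboxykinase that starts the route from oxaloacetate, had normalized counts of 82070 and 105586 in the fasted mice and 4235 and 9921 in the refed mice. Both refed mice were below both fasted mice by a wide margin (log2 fold change -3.84, SE 0.71, adjusted p = 0.0105). *G6pc*, the glucose-6-phosphatase that releases free glucose, went from 7865 and 10424 to 3077 and 3178 (log2 fold change -1.53, SE 0.28, adjusted p = 0.0107). The refed pair was close together and below the fasted pair. *Got1*, which moves aspartate carbon into the cytosol, fell by 2.11 (adjusted p = 0.000391), the coactivator gene *Ppargc1a* by 1.30 (adjusted p = 0.00735) and the CREB-induced kinase gene *Sik1* by 1.96 (adjusted p = 0.0147) on the log2 scale. *Fbp1*, *Pcx*, *Slc37a4* and *Mdh1* were not called, with differences of 0.21, 0.16, 0.06 and -0.42. *Got1* kept its call with each mouse left out. Without fasted replicate 2 the adjusted p was 0.0912 for *G6pc*, 0.105 for *Sik1* and 0.0715 for *Ppargc1a*, without refed replicate 1 it was 0.088 for *Pck1*, and 1 to 5 genes of the list fell in these fits.

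Genes that FOXO1 activates and that insulin represses included some of the deepest falls. In the list of 16 insulin signalling and FOXO1 genes, 5 fell and 1 rose (median -0.20). *Igfbp1*, a secreted binding protein for insulin-like growth factors, dropped from 4236 and 4703 in the fasted mice to 139 and 192 in the refed mice (log2 fold change -4.76, SE 0.64, adjusted p = 0.00212). *Irs2*, the insulin receptor substrate that FOXO1 sustains in the fast, went from 703 and 942 to 92.9 and 94.8 (log2 fold change -3.10, SE 0.28, adjusted p = 0.000391). The refed mice were nearly equal to each other and far from the fasted mice. The transcription factor genes *Foxo1* (-1.22, adjusted p = 0.00996), *Foxo3* (-0.91, adjusted p = 0.0125) and *Klf15* (-1.39, adjusted p = 0.00362) fell by smaller amounts. *Pik3r1*, a regulatory subunit of phosphoinositide 3-kinase, rose by 0.44 (adjusted p = 0.0492). *Insr*, *Irs1*, *Akt1* and *Akt2*, the upper steps of the pathway, differed by -0.21, -0.17, 0.09 and 0.10 and were not called. *Igfbp1*, *Irs2* and *Klf15* kept their calls with each mouse left out, and without fasted replicate 2 the adjusted p was 0.0805 for *Foxo1*, 0.104 for *Foxo3* and 0.282 for *Pik3r1*.

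Glycogen genes moved both ways, with 3 that rose and 2 that fell of 16 (median -0.09). The clearest contrast lay among the targeting subunits that bring protein phosphatase 1 to glycogen. *Ppp1r3g* had 214 and 280 normalized counts in the fasted mice and 0 and 2.06 in the refed mice, so it was listed at 0 in 1 refed mouse and near it in the other. It fell with an adjusted p of 0.00403, and the size of the fitted change depends on the pseudocount. *Ppp1r3b* went the other way, from 963 and 899 to 2616 and 2424 (log2 fold change 1.44, SE 0.27, adjusted p = 0.0105). Another subunit gene, *Ppp1r3c*, differed by -0.30 and was not called. Liver glycogen phosphorylase, *Pygl*, rose by 0.82 (adjusted p = 0.00365), while *Gyg*, glycogenin, fell by 0.82 (adjusted p = 0.0334). *Gys2*, the liver glycogen synthase, was at 6065 and 6539 in the fasted and 6093 and 6085 in the refed mice (-0.05, adjusted p = 0.853). Without fasted replicate 2 the calls of *Ppp1r3b* and *Gyg* were lost (adjusted p = 0.0772 and 0.207).

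Fatty acid oxidation and ketone body synthesis gave 1 call. Of 21 genes tested, *Cpt1a*, which admits fatty acids to the mitochondrion, fell by 0.71 (adjusted p = 0.022, and 0.156 without fasted replicate 2), none rose, and the median was 0.00. The fasted and refed mice did not overlap for 2 genes of the list, against 56.1% of all genes tested. *Acadm* and *Hadha*, which encode enzymes of beta-oxidation, differed by -0.02 and 0.05. Among 18 targets of PPAR alpha, the fatty acid receptor of the fasted liver, 2 fell and 2 rose, with a median of 0.03. *Angptl4*, a secreted inhibitor of lipoprotein lipase, dropped from 3087 and 4281 to 187 and 514 (log2 fold change -3.54, SE 0.50, adjusted p = 0.00272). *Fgf21* and the droplet coat gene *Plin2* (0.69, adjusted p = 0.0204, and 0.129 without refed replicate 1) rose, while *Pdk4* (-1.17, adjusted p = 0.0908), *Cyp4a10* (0.02, adjusted p = 0.986) and *Ppara* itself (-0.06, adjusted p = 0.912) were not called.

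In the list of 23 genes for triglyceride assembly, droplets and lipolysis, 4 rose and 4 fell (median 0.19). The genes that fell were *Lpin1* (-1.35, adjusted p = 0.0222) and *Lpin2* (-1.33, adjusted p = 0.00265), which make diacylglycerol, *Pnpla2* (-0.99, adjusted p = 0.00108), the main triglyceride lipase, and the coat protein gene *Plin5* (-0.56, adjusted p = 0.039). *G0s2*, whose product inhibits that lipase, rose from 226 and 409 to 968 and 1132 (log2 fold change 1.78, SE 0.37, adjusted p = 0.0175). So the lipase RNA fell and the RNA of its inhibitor rose in the same mice. *Mgll* (0.97, adjusted p = 0.00059), *Agpat2* (0.57, adjusted p = 0.0125) and *Mttp* (0.44, adjusted p = 0.00403), which loads lipid onto apolipoprotein B, rose as well. *Apob*, *Dgat1* and *Dgat2* differed by -0.06, -0.33 and 0.47 and were not called. *Pnpla2*, *Lpin2*, *Mgll* and *Mttp* kept their calls throughout. Without fasted replicate 2 the adjusted p was 0.139 for *Lpin1*, 0.229 for *Plin5* and 0.101 for *Agpat2*, and without fasted replicate 1 it was 0.106 for *G0s2*.

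In amino acid catabolism, 12 of 32 genes fell and 1 rose, 29 had a log2 difference below 0, and the median was -0.36. *Tat*, tyrosine aminotransferase, a textbook glucocorticoid and glucagon target, went from 97464 and 123400 in the fasted mice to 19333 and 20924 in the refed mice. The refed pair sat far below the fasted pair (log2 fold change -2.45, SE 0.22, adjusted p = 0.000396). *Sds*, serine dehydratase, which turns serine into pyruvate, fell from 5863 and 5327 to 1280 and 1059 (log2 fold change -2.26, SE 0.27, adjusted p = 0.00111), and *Tdo2*, the first enzyme of tryptophan breakdown, by 1.16 (adjusted p = 0.000566). *Cth*, *Aass*, *Oat*, *Hpd* and *Hgd*, which act in the breakdown of sulfur amino acids, lysine, ornithine and tyrosine, fell by 0.82, 0.76, 0.68, 0.60 and 0.38 on the log2 scale. *Bckdk*, the kinase that shuts off branched-chain amino acid breakdown, was the gene that rose (0.92, adjusted p = 0.0069), and *Bckdha*, a subunit of the complex it inhibits, fell by 0.30 (adjusted p = 0.04). Without 1 mouse, 7 to 9 of the genes fell, and the calls that did not hold throughout included those of *Pck1*, *Hpd*, *Hgd* and *Bckdha*, the latter 3 with adjusted p of up to 0.0715, 0.103 and 0.235 (*Hpd* and *Bckdha* without fasted replicate 2, *Hgd* without fasted replicate 1).

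The urea cycle, which takes up the nitrogen freed by that breakdown, had 4 of 8 genes that fell and none that rose, with a median of -0.60. *Arg1*, arginase, had 40570 and 40009 in the fasted and 22935 and 23000 in the refed mice, both pairs tight (log2 fold change -0.81, SE 0.10, adjusted p = 0.00123). *Cps1*, which makes carbamoyl phosphate, went from 131920 and 131931 to 91822 and 83704 (log2 fold change -0.59, SE 0.14, adjusted p = 0.0276). *Slc25a15*, the mitochondrial ornithine carrier, fell by 0.61 (adjusted p = 0.00117) and *Asl* by 0.61 (adjusted p = 0.0245). *Ass1* (-0.65, adjusted p = 0.0618) and *Otc* (-0.24, adjusted p = 0.185) were not called. *Arg1* and *Slc25a15* kept their calls with each mouse left out, *Cps1* was lost without fasted replicate 2 (adjusted p = 0.135) and *Asl* without refed replicate 2 (adjusted p = 0.134).

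Amino acid transporters and targets of ATF4, the transcription factor of the amino acid response, showed 4 genes that fell of 20 tested and none that rose (median -0.13). The cationic amino acid transporter gene *Slc7a2* dropped from 13326 and 15822 to 3886 and 3791 (log2 fold change -1.92, SE 0.18, adjusted p = 0.000431), and *Slc38a2*, a glutamine transporter gene, by 1.65 (adjusted p = 0.000781). *Ddit4*, an inhibitor of mTORC1, went from 1307 and 1980 to 160 and 105 (log2 fold change -3.62, SE 0.40, adjusted p = 0.000826). *Asns*, asparagine synthetase, had 397 and 161 in the fasted and 21.2 and 73.5 in the refed mice, and fell by 2.64 (adjusted p = 0.0468), a call lost with only the 4 libraries in the fit (adjusted p = 0.0895) and without refed replicate 1 (adjusted p = 0.255). *Atf4* itself (0.31, adjusted p = 0.305), *Ddit3* (0.14, adjusted p = 0.596) and *Trib3* (-0.71, adjusted p = 0.19) were not called.

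Of 19 genes induced by glucocorticoids, glucagon or fasting, 10 fell and none rose, and the median of the list was -1.35. *Fkbp5*, a glucocorticoid receptor co-chaperone and standard readout of receptor activity, went from 3275 and 2922 to 944 and 1018 (log2 fold change -1.66, SE 0.20, adjusted p = 0.00115). *Tsc22d3*, known as GILZ, had 4858 and 6283 in the fasted and 1378 and 2051 in the refed mice (log2 fold change -1.72, SE 0.39, adjusted p = 0.0255). *Zbtb16*, a transcription factor gene induced by glucocorticoids, dropped from 1013 and 1202 to 76.0 and 130 (log2 fold change -3.46, SE 0.66, adjusted p = 0.0125). For all 3 genes the groups were far apart. The metallothionein genes *Mt1* (-2.95, adjusted p = 0.0025) and *Mt2* (-4.29, adjusted p = 0.000391, with 58.1% of its 31-base stretches also in other genes), which bind zinc and copper and also stand in the acute phase list, and *Sgk1* (-1.21, adjusted p = 0.0231) and *Tob1* (-0.68, adjusted p = 0.0284) fell, together with *Tat*, *Lpin1* and *Ppargc1a* described above. The receptor genes *Nr3c1* (0.12) and *Gcgr* (0.09) were not called. *Fkbp5*, *Mt1*, *Mt2* and *Tat* kept their calls with each mouse left out, whereas *Tsc22d3* (adjusted p = 0.158) and *Zbtb16* (0.094) lost theirs without refed replicate 1 and *Sgk1* (0.149) and *Tob1* (0.189) without fasted replicate 2.

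Among chaperones and other genes of the endoplasmic reticulum and secretory pathway, 10 of 47 tested rose and 1 fell, the median was 0.47, and 42 had groups that did not overlap, against 56.1% of all genes tested. *Xbp1*, the transcription factor of the unfolded protein response, went from 2616 and 2434 to 6022 and 5185 (log2 fold change 1.15, SE 0.24, adjusted p = 0.0173). *Ern1*, which encodes IRE1, the nuclease that splices *Xbp1* RNA, rose by 1.11 (adjusted p = 0.00105), the chaperone genes *Hyou1* by 1.12 (adjusted p = 0.0294) and *Pdia4* by 1.16 (adjusted p = 0.0436). *Hspa5*, the gene of the chaperone BiP, had 27705 and 24914 in the fasted and 55488 and 50870 in the refed mice. Those pairs were tight and well apart, and the difference of 1.02 (SE 0.34) was not called in the fit over 12 libraries (adjusted p = 0.0977) but was with only the 4 compared (adjusted p = 0.00795). With these 4 alone 24 genes of the list rose. *Herpud1*, which serves degradation of misfolded proteins, fell from 16490 and 17708 to 8193 and 9991 (log2 fold change -0.92, SE 0.16, adjusted p = 0.00755). *Ddit3* and *Atf4*, which belong to another arm of the response, were not called, as given above. With 1 mouse left out, 1 to 4 genes of the list rose, with *Ern1* called throughout, and without fasted replicate 2 the adjusted p was 0.172 for *Hyou1* and 0.197 for *Pdia4*. Without refed replicate 1 it was 0.111 for *Xbp1* and 0.071 for *Herpud1*.

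Few genes of the protein synthesis lists passed the test. Of 39 ribosome biogenesis genes, 33 had a log2 difference above 0, with a median of 0.22, but the 2 that rose were *Bysl* (0.66, adjusted p = 0.0189) and *Rrp12* (0.58, adjusted p = 0.0254), both lost on leaving out any 1 of the 4 mice (adjusted p up to 0.112 and 0.136, without fasted replicate 2). In the list of 34 translation factors and aminoacyl-tRNA synthetases 4 rose and none fell (median 0.18). The threonyl-tRNA synthetase gene *Tars* went from 2019 and 1976 to 4178 and 4220 (log2 fold change 1.07, SE 0.12, adjusted p = 0.00073) and the tyrosyl gene *Yars* from 296 and 353 to 579 and 652 (log2 fold change 0.93, SE 0.12, adjusted p = 0.00132). *Aars* and *Hars* rose by 0.29 and 0.32, calls lost without fasted replicate 2 (adjusted p = 0.174 and 0.153). The remaining list of cytosolic heat shock genes had 2 that rose of 27 (median 0.05), *Bag3* (1.07, adjusted p = 0.0136) and *Fkbp4* (0.43, adjusted p = 0.0109), while *Hspa8*, *Hsp90ab1* and *Hspa1b* differed by 0.27, 0.11 and -0.30. Both *Bag3* (adjusted p = 0.097) and *Fkbp4* (0.0931) were lost without fasted replicate 2.

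Hepatokine genes, which encode regulators of metabolism that the liver secretes, moved in both directions, with 5 that rose and 2 that fell of 23 (median 0.03). *Angptl8*, an insulin-induced inhibitor of lipoprotein lipase, went from 264 and 317 in the fasted to 5093 and 4193 in the refed mice (log2 fold change 3.99, SE 0.25, adjusted p = 9.51e-05). Its partner in function *Angptl4* fell, as given above. *Fgf21*, a hormone known for its response to both fasting and sugar, had 1.13 and 4.82 in the fasted mice and 25.1 and 73.5 in the refed mice. The refed mice were above both fasted mice but differed from each other by more than the fasted mice did (log2 fold change 3.65, SE 0.67, adjusted p = 0.0103). With fasted values this low, the size of the fitted change depends on the pseudocount. The activin subunit genes rose together, *Inhba* from 110 and 143 to 1223 and 653 (log2 fold change 2.82, SE 0.49, adjusted p = 0.00745), *Inhbe* by 1.65 (adjusted p = 0.00259) and *Inhbc* by 0.99 (adjusted p = 0.00187). *Igf1*, *Igfbp2*, *Ahsg* and *Gdf15* were not called, with differences of -0.19, -0.47, -0.21 and -0.58. *Angptl8*, *Inhbe* and *Inhbc* kept their calls with each mouse left out, *Fgf21* was lost without refed replicate 2 (adjusted p = 0.0699) and *Inhba* without refed replicate 1 (adjusted p = 0.0716).

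Fasted mice were killed earlier in the day than fed mice according to the study's methods. Time of day and feeding therefore cannot be told apart for any gene compared here, the clock genes included. Of 20 clock genes tested, 3 rose and 2 fell (median -0.12). *Bhlhe40*, a repressor in the clock, went from 1380 and 1939 to 3564 and 3492 (log2 fold change 1.11, SE 0.15, adjusted p = 0.00241), and *Per2* rose by 0.66 (adjusted p = 0.0192). *Ciart* fell by 1.50 (adjusted p = 0.0125) and *Nr1d2*, which encodes REV-ERB beta, by 0.50 (adjusted p = 0.0338). The core genes *Arntl*, *Clock* and *Cry1* differed by 0.01, 0.06 and 0.17, and *Per1* by -1.25 (adjusted p = 0.0857), none of them called. *Bhlhe40* kept its call with each mouse left out, and the adjusted p was 0.141 for *Per2* and 0.103 for *Ciart* without fasted replicate 2 and 0.187 for *Nr1d2* without refed replicate 1.

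Early response genes gave 3 that rose and 3 that fell of 23 (median -0.48). *Gadd45a*, a stress and growth arrest gene, went from 38.4 and 47.9 to 513 and 361 (log2 fold change 3.30, SE 0.34, adjusted p = 0.000548). *Myc*, the growth regulator, rose from 67.7 and 33.1 to 323 and 269 (log2 fold change 2.61, SE 0.65, adjusted p = 0.0372), and *Klf10*, a sugar-responsive transcription factor gene, by 2.04 (adjusted p = 0.00152). *Cebpb* (-1.16, adjusted p = 0.0338), *Cebpd* (-1.50, adjusted p = 0.00352) and *Btg2* (-1.04, adjusted p = 0.0202) fell. *Fos*, *Jun* and *Egr1* were not called, with differences of -0.99, -0.24 and -2.27. Without fasted replicate 2, *Myc* (adjusted p = 0.215), *Cebpb* (0.207) and *Btg2* (0.141) were lost, and *Gadd45a*, *Klf10* and *Cebpd* were kept throughout.

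Autophagy and lysosome genes had 5 that fell and 1 that rose of 33 (median -0.20). *Depp1*, a FOXO target that regulates autophagy, went from 1210 and 1002 to 247 and 308 (log2 fold change -1.99, SE 0.20, adjusted p = 0.000526), and *Gabarapl1* (-0.80), *Atg14* (-0.68), *Ctsl* (-0.58) and *Map1lc3b* (-0.36) fell less. *Sqstm1*, the autophagy receptor p62, rose by 0.44 (adjusted p = 0.0215). *Tfeb*, the main transcription factor of the lysosome, differed by 0.05 (adjusted p = 0.901). *Depp1* was the call of this list that held with each mouse left out, and the others reached adjusted p of 0.138 for *Gabarapl1*, 0.107 for *Atg14*, 0.0633 for *Ctsl*, 0.284 for *Map1lc3b* and 0.154 for *Sqstm1*.

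Lists with few or no calls included oxidative phosphorylation, with no call by limma among 29 genes (median -0.10, and 1.0 at an unadjusted p under 0.05), and the NRF2 and antioxidant genes, with no call by limma among 24 (median -0.02, and 4.0 at an unadjusted p under 0.05). Of 27 cytochrome P450 genes of families 1 to 3 and their reductase, 2 fell (median -0.22), the reductase gene *Por* from 12877 and 13758 to 6556 and 6950 (log2 fold change -0.98, SE 0.11, adjusted p = 0.000981) and *Cyp3a13* (-0.51, adjusted p = 0.0202). *Cyp2b10* had 717 and 878 in the fasted and 211 and 215 in the refed mice, a difference of -1.89 that missed the threshold (adjusted p = 0.0508). Bile acid genes had 1 that rose and 2 that fell of 16 (median -0.19). *Nr1h4*, the bile acid receptor FXR, went from 2765 and 2552 to 3734 and 4690 (log2 fold change 0.66, SE 0.11, adjusted p = 0.00731), *Abcc2* (-0.44, adjusted p = 0.0457) and *Cyp27a1* (-0.39, adjusted p = 0.0328) fell, and *Cyp7a1*, the rate-limiting enzyme of bile acid synthesis, differed by -0.39 (adjusted p = 0.562). Apart from the metallothioneins, the acute phase list of 23 had *Crp* as its remaining gene that fell (-0.41, adjusted p = 0.0327), with a median of -0.27. In the kinase module of Mediator, *Cdk8* fell by 0.49 (adjusted p = 0.0129) and the other 6 genes tested were not called. *Por* kept its call with each mouse left out, and the others were lost, at adjusted p of 0.139 (*Cyp3a13*), 0.0698 (*Nr1h4*) and 0.104 (*Cdk8*) without fasted replicate 2 and 0.227 (*Abcc2*), 0.187 (*Cyp27a1*) and 0.182 (*Crp*) without refed replicate 1.

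Some of the largest changes lay outside the fixed lists. *Aacs*, which makes acetoacetyl-CoA in the cytosol for lipid synthesis, rose from 583 and 376 to 7512 and 5182 (log2 fold change 3.73, SE 0.39, adjusted p = 0.000566). *Slc34a2*, a sodium-dependent phosphate transporter gene, went from 0.985 and 2.66 to 98.0 and 61.7 (log2 fold change 4.87, SE 0.84, adjusted p = 0.00751). Its fasted values lay near 0, so the size of the fitted change depends on the pseudocount. The adjusted p by limma was 0.0018 with a pseudocount of 10 and 0.0466 with 0.1. *Atp2b2*, a plasma membrane calcium pump gene, went from 4.51 and 7.66 to 229 and 129 (log2 fold change 4.65, SE 0.39, adjusted p = 0.000353). In these 3 genes both refed mice were many times above both fasted mice. *Slc2a4*, the insulin-regulated glucose transporter of muscle and fat, had 7.51 and 8.92 in the fasted and 119 and 60.5 in the refed mice (3.22, adjusted p = 0.00688), and the channel gene *Hcn3* (3.14, adjusted p = 0.000431) and *Fam198a* (3.12, adjusted p = 0.0157) completed the large rises that were not at 0 in a fasted mouse.

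*Prkaa1*, a catalytic subunit of AMP-activated protein kinase, was listed at 0 in both fasted mice and at 339 and 360 in the refed mice, and *Rprd2* at 0 and at 22.0 and 81.4. *Akap8l* was at 0 and 14.5 in the fasted and 35.0 and 104 in the refed mice. In the fructose group *Prkaa1* was at 0 in 1 mouse and 268 in the other. The fasted libraries labelled MED13-LKO held 248 and 223 for *Prkaa1*, and the lowest library with that label held 86.1. Whether the values of 0 come from how reads were assigned was not tested. No fold is given for these 3 genes, and the point of *Prkaa1* in the plot of all genes tested is no measured fold. Among the deepest falls outside the lists, *Ip6k2*, an inositol hexakisphosphate kinase gene, went from 312 and 311 to 23.0 and 7.23, *Elovl3*, a fatty acid elongase gene with a strong daily rhythm in liver, from 269 and 392 to 27.1 and 15.5, and *Arl4d* from 1933 and 1927 to 240 and 289. *Scara5* (-3.27), a ferritin receptor gene, and *Pdgfrl* (-2.66) also fell. *Aacs*, *Atp2b2*, *Hcn3* and *Arl4d* kept their calls with each mouse left out. The other calls reached, without 1 mouse, adjusted p of 0.0711 for *Slc34a2* and 0.0709 for *Slc2a4* (without refed replicate 1), 0.0756 for *Ip6k2*, 0.0558 for *Rprd2* and 0.181 for *Akap8l* (without refed replicate 2), and 0.111 for *Prkaa1*, 0.112 for *Fam198a*, 0.209 for *Elovl3*, 0.158 for *Scara5* and 0.141 for *Pdgfrl* (without fasted replicate 2).

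The sucrose response of control liver was then set against that of the libraries labelled MED13-LKO. *Med13* RNA was not lower in those libraries. Its normalized counts were 674 and 796 in fasted and 578 and 673 in refed control mice, and 808 and 899 in fasted and 646 and 717 in refed mice labelled MED13-LKO. A whole-gene count can include RNA from parts of the gene that remain after the deletion, which was not tested, and the labels were used as given. By Western blot, the study found MED13 protein to be nearly absent from MED13-LKO liver. The difference between the responses, tested as an interaction, was called for 18 of the 12366 genes (0.146%). The 5 with the widest fitted difference were *Rprd2*, the antibody genes *Ighv1-50*, *Ighg1* and *Igkv11-106* and the pseudogene *Rps12-ps24*. All 5 had libraries listed at or near 0, so the size of the fitted difference depends on the pseudocount. *Rprd2* was at 0 in both fasted control libraries and in both sucrose libraries labelled MED13-LKO.

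*Oat* and *Slc25a15*, which both handle ornithine, were the members of the lists among these 18. *Oat*, ornithine aminotransferase, fell in control liver from 27508 and 22253 to 15200 and 15719, while the libraries labelled MED13-LKO had 8922 and 8902 fasted and 13796 and 13218 after sucrose. The fasted libraries labelled MED13-LKO were already below the refed control mice, and the responses differed by 1.28 (adjusted p = 0.0172). *Slc25a15* went from 6054 and 6626 to 4204 and 4098 in control liver and from 3358 and 3191 to 3515 and 3464 in the libraries labelled MED13-LKO, a difference of 0.70 (adjusted p = 0.0414). *Nnmt*, which methylates nicotinamide, fell in control liver from 3602 and 3196 to 1216 and 1141 and was at 2489 and 2382 fasted and 2336 and 2468 after sucrose in the libraries labelled MED13-LKO. The responses differed by 1.51 (adjusted p = 0.00245). *Paqr9*, a membrane receptor family gene, rose from 1298 and 1411 to 5508 and 6260 in control liver and from 2140 and 2038 to 4887 and 4345 in the libraries labelled MED13-LKO, so the rise was smaller there by 0.98 (adjusted p = 0.0205). *Paqr9* was chosen for description after its values were seen. *Nnmt* kept its call with any of the 8 libraries left out. *Oat* lost it without any 1 of the 4 libraries labelled MED13-LKO (adjusted p = 0.0616 to 0.113), *Slc25a15* without any 1 of the 8 (0.0978 to 0.276) and *Paqr9* without any 1 of 6, with the highest adjusted p, 0.165, without MED13-LKO sucrose replicate 2. Over all genes, 2 to 28 were called with 1 library left out, the fewest without either refed library labelled MED13-LKO and the most without control sucrose replicate 2.

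Side by side, 5 of the genes described above had the following values. The log2 fold change of *Fasn* was 4.48 in control liver and 3.35 in the libraries labelled MED13-LKO, of *Acly* 2.94 and 1.78, of *Pklr* 2.66 and 2.17, of *Pck1* -3.84 and -2.82, and of *Igfbp1* -4.76 and -4.92. The test of the difference did not call any of these 5 genes, with adjusted p of 0.59, 0.577, 0.767, 0.827 and 0.983. In that interaction test by limma, 1055 of the 12366 genes had an unadjusted p under 0.05. The SE of the difference was 0.52 for *Fasn*, so a gene that was not called cannot be taken as alike in both. In the libraries labelled MED13-LKO sucrose changed 706 genes (5.71%).

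**Figure D4:**
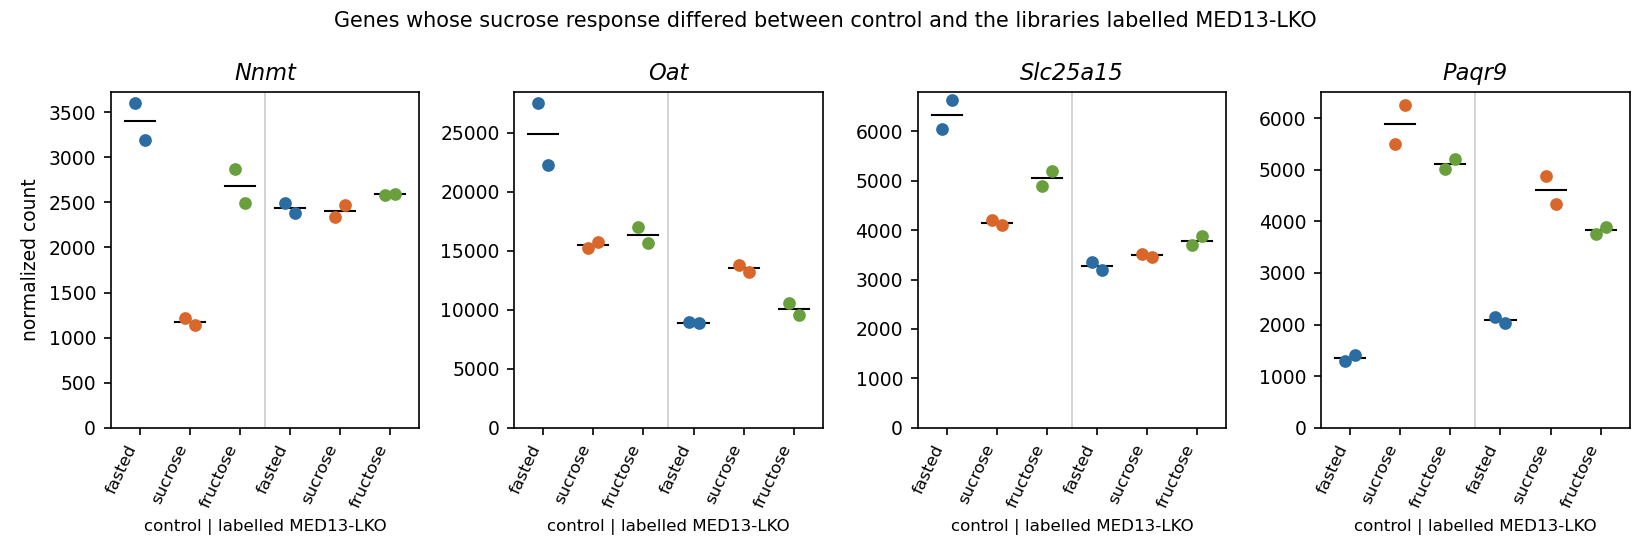
Normalized counts (vertical axes, from 0) of *Nnmt*, *Oat*, *Slc25a15* and *Paqr9* in each mouse of the 6 groups, control on the left and labelled MED13-LKO on the right of each panel, with bars at the mean of 2 mice. Sucrose separates the control mice from the fasted ones in all 4 genes, whereas the refed and fasted libraries labelled MED13-LKO lie close together for *Nnmt* and *Slc25a15*.

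Refeeding with fructose in place of sucrose shared the fasted mice, so its values are given beside those of sucrose without a measure of likeness. Fructose changed 692 genes (5.60%) against the fasted mice. The log2 fold change of *Fasn* was 4.48 with sucrose and 2.93 with fructose, and of *Pklr* 2.66 and 1.60, each called against the fasted mice. *Pck1* was at 7416 in 1 fructose mouse and 48079 in the other, and its log2 fold change of -2.30 with fructose was not called (adjusted p = 0.0909), beside -3.84 with sucrose. *G6pc* was at 3665 and 7030 after fructose, a log2 fold change of -0.83 that was not called (adjusted p = 0.119), beside -1.53 with sucrose. In the direct test of sucrose against fructose these genes were not called, at adjusted p of 0.279, 0.277, 0.596 and 0.527. In that test by limma, 1061 of the 12366 genes had an unadjusted p under 0.05. After adjustment 5 genes (0.0404%) were called, *Nnmt*, *Fam177a*, *Nudt16l1*, *Ighv1-50* and *Gm9457*. With 2 mice a group, a gene that was not called cannot be taken as alike after both sugars. *Nnmt* was at 1216 and 1141 after sucrose and at 2872 and 2488 after fructose, between the sucrose and the fasted mice, and it lost this call with only the 4 libraries compared in the fit (adjusted p = 0.459). The other genes were listed at or near 0 in the libraries of 1 of the groups. With 1 library left out 8 to 73 genes were called, the most without control fructose replicate 2, and with only the 4 libraries none was called by limma, with 655 at an unadjusted p under 0.05.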

How the data were processed

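Total liver RNA of 12 mice was sequenced, 2 mice in each of 6 groups. The deposited values are a scaled read signal per gene, the normalized counts of the authors, made with Trim Galore 0.6.5, kallisto 0.46.0 and DESeq2 1.24.0 and named with build mm10 per the submitters' processing notes. How transcript estimates were summed to genes is not given in the sources used here, and all 12 columns matched a sample (0 did not). In genes with 1 annotated transcript 87.4% to 99.0% of low values in the 4 libraries compared were whole multiples of 1 read (within 0.05 of a read), but 52.0% to 57.1% over all genes, so counts were not recovered and no count test was run. Genes were kept at a mean of at least 10. limma 3.58.1 in R 4.3.3 was run on log2(value + 1) with 1 mean per group, a trended prior and Benjamini-Hochberg adjustment over 12366 genes, and a gene was called at an adjusted p under 0.05. The sucrose comparison was also simulated for 12366 genes, 200 of them changed, with normal noise of the fitted spread. In these simulated data 66% of changes of 1 log2 unit and 85% of changes of 2 units were recovered. Such data obey the model of the test, so the shares are no measure of recovery in the real libraries. The main fit held all 12 libraries, so its intervals and tests rest on a spread pooled over the 6 groups of 2 mice. Tables and figures were made with Python 3.11.15, pandas 2.3.3, NumPy 2.4.6 and matplotlib 3.10.9.

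Genes were placed with GENCODE M21 (16222 of 16346 identifiers found), sequence sharing was counted over its transcripts in stretches of 31 bases, and promoter letters came from RefSeq (GRCm38.p6). Named genes are members of 39 lists, which hold 713 genes (678 tested, of which 133, or 19.6%, were called, 72 higher and 61 lower), plus the 15 largest rises and 15 largest falls among called genes with a mean of at least 50 in the higher group, leaving out pseudogenes and genes named Gm or Rik, and the 5 largest differences in each of the other comparisons. The values of some list members are not reported here, though the counts over the lists include them. The comparison, the members and the lists were chosen with earlier results of these data known. Each result was also computed with a pseudocount of 0.1 or 10, without the filter or with a minimum mean of 50, with equal 75th percentiles, with a replicate block, from only the compared groups, and with each mouse left out.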

Additional observations from a re-analysis of the deposited data

Results flagged for a closer look

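The sucrose response differed between control liver and the libraries labelled MED13-LKO by the interaction test of limma for 18 genes. The differences in log2 response (labelled MED13-LKO minus control) of those named were as follows. Among genes well above 0 in every library, the difference was 1.51 for *Nnmt*, 1.28 for *Oat*, 0.70 for *Slc25a15* and -0.98 for *Paqr9*. Among genes with libraries listed at or near 0 the fitted value, whose size depends on the pseudocount and is no measured fold, was -11.67 for *Rprd2*, 7.06 for *Ighv1-50*, 6.35 for *Rps12-ps24*, 6.29 for *Ighg1*, 6.16 for *Igkv11-106* and 5.81 for *Gm9457*. For the latter 5 genes the control sucrose libraries held 0 to 4.02 normalized counts and the sucrose libraries labelled MED13-LKO 40.0 to 196.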

How the results depend on the processing

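Of the 206 genes named with a sucrose response, 143 were called. Pseudocounts of 0.1 and 10 kept 139 and 141 of these calls, no filter on low values 136, equal 75th percentiles 143, the fit of only the compared groups 116, and a mean of at least 50 kept all 132 that it tested. None of the 143 changed sign under any of these. Fits with 1 mouse less kept 71 to 90 of the calls, and 63 held in all 4. The count of called genes moved from 1060 to 698 with only the compared groups (370 of 600 higher), and to 373 with a log2 change above 1 (219 higher, 154 lower), a rule that only removes calls. With 1 mouse left out it was 329 to 512 in all, 193 to 286 higher and 127 to 227 lower. The difference in response between control liver and the libraries labelled MED13-LKO went from 18 genes to 5 at a mean of at least 50 and 8 with only the compared groups, and to 2 to 28 with 1 library left out. Sucrose against fructose went from 5 genes to 12 with a pseudocount of 0.1, 3 with a pseudocount of 10, 8 with no filter, 3 at a mean of at least 50, 0 by limma with only the compared groups (655 at an unadjusted p under 0.05), and 8 to 73 with 1 library left out. The fit of only the compared groups and those with 1 mouse less rest on fewer samples, and otherwise the cause was not tested. In the fit of only the compared groups 24 in place of 10 endoplasmic reticulum genes rose, 10 in place of 4 of cholesterol synthesis, 2 in place of 5 of the pentose phosphate list, 1 in place of 2 of the PPAR alpha targets and 1 in place of 2 heat shock genes, and 4 in place of 2 clock genes, 5 in place of 3 early response genes, 4 in place of 2 cytochrome P450 genes, 1 in place of 2 glycogen genes and 0 in place of 2 bile acid genes fell by limma.

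The replicate numbers in the sample titles showed no sign of pairing the mice, though low correlations cannot show that the mice were unrelated. The column labels number the refed mice differently from the titles, and that numbering was not tested. Deviations of samples with the same number correlated at -0.142 to 0.0782 between groups, and at 0.0377 between fasted and refed control mice. With the replicate number as a block, 933 genes were called (519 higher, 414 lower), 134 of the 143 named calls were kept, the difference between those responses was called for 7 genes and sucrose against fructose for 3.

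Named genes that were not called and whose sign turned in at least 1 fit with a mouse left out had log2 fold changes there of -0.21 to 0.17 for *Acadm*, -0.14 to 0.0281 for *Apob*, -0.19 to 0.21 for *Arntl*, -0.0780 to 0.20 for *Clock*, -0.38 to 0.41 for *Cyp4a10*, -0.92 to 0.14 for *Cyp7a1*, -0.10 to 0.0058 for *Gys2*, -0.14 to 0.24 for *Hadha*, -0.62 to 0.0217 for *Hspa1b*, -0.52 to 0.0484 for *Jun*, -0.0123 to 0.33 for *Pcx*, -0.0189 to 0.0346 for *Pgk1*, -0.18 to 0.0733 for *Ppara*, -0.20 to 0.20 for *Pparg*, -0.62 to 0.0150 for *Ppp1r3c*, -0.0805 to 0.0882 for *Rpe*, -0.15 to 0.26 for *Tfeb* and -0.10 to 0.33 for *Usf1*. With 2 mice a group, small changes in low or variable genes lie below what these data can show.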

Other observations

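Among the 1060 called genes, 3 were listed at 0 in both fasted mice and 8 in both refed mice, and 60 shared over 30% of their 31-base stretches with other genes, so their values can depend on how reads were divided among copies. Beside *Mt2* and *Onecut1*, the genes named for their sucrose response include *Bckdha* (54.6% shared), *Glyctk* (49.6%), *Me1* (36.9%) and *Acaca* (33.5%) among these. Of the genes named for the genotype or sugar comparisons, *Fam177a* shared 98.5%, *Ighv1-50* 69.2% and *Rps12-ps24* 68.4%. *Nudt16l1* (25.2%), *Gm9457* (21.6%), *Igkv11-106* (21.5%), *Ighg1* (1.72%), *Rprd2* (0.26%) and *Nnmt* (0%) lay below that limit. Refed replicate 1 lay below replicate 2 in 266 of the 460 genes that fell.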
